A study of Mus musculus with 8 samples.

Results

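miR-210 is a microRNA (miRNA) whose hairpin yields a mature product from each arm, miR-210-3p and miR-210-5p, and its level was followed in embryonic mouse footpad skin with and without Dicer, the RNase that cuts miRNA hairpins. Its members were all array rows annotated mmu-miR-210-3p or mmu-miR-210-5p: 2 of the 1881 mouse miRNAs on the array and 4 of its 4415 probes. The choice was made from measured values: miR-210 was selected on its cKO minus wild-type difference at E16.5, where miR-210-3p was lower in knockout under every scaling. The E16.5 values are therefore given as a description with no test. The E17.5 arrays were not used by that rule, but earlier results of these data were known when the members were chosen. The spread in the E17.5 test was estimated from all 8 arrays, those of E16.5 among them.

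Footpad skin of C57BL6 embryos was measured on 8 single-colour Agilent arrays, 2 for each of 4 groups: Dicer conditional knockout (cKO) and wild type at the embryonic stage E16.5, and cKO and wild type at E17.5. Each array held labelled RNA from a pool of 3 to 5 embryos. The labels do not name the Cre driver, the deleted cells or the controls' alleles. Dicer mRNA has no probe on a miRNA array, so how complete the deletion was could not be read from these data. The design title places the work in the stage of sweat gland development that follows induction. The p-values measure the spread between pools, not between single embryos, and 2 arrays a group limit the precision of every value.

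In mammalian cells miR-210 is transcribed under hypoxia-inducible factor (HIF), the transcription factor that is stabilised at low oxygen. miR-210-3p, the arm to which most known targets belong, represses Iscu mRNA, which encodes a scaffold for iron-sulfur cluster assembly in mitochondria, and in human endothelial cells EFNA3, which encodes an ephrin ligand. In ischemic wounds of mouse skin it represses E2f3, which encodes a cell-cycle transcription factor of keratinocytes.

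The hairpin, both mature arms and the 4 array probes are shown because they define what each signal could detect. The RefSeq sequences are those of GRCm38.p6, where the hairpin lies on the minus strand at chr7:141221384-141221493. The array headers name mm9, an older build, so these positions are not the array's. In the RefSeq gene table Mir210 overlapped 0 other genes, with Rassf7 and Gm51460 as its neighbours. Capitals mark the 2 mature arms in the hairpin, the 5p arm first, and the seed (bases 2 to 8, which pair with target mRNAs) in each mature sequence:
miR-210 hairpin: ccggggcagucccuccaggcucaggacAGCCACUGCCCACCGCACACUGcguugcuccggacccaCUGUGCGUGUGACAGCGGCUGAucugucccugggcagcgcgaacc
miR-210-3p: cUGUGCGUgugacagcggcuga
miR-210-5p: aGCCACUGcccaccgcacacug
Both members matched RefSeq, and 0 other mature mouse names among the 1679 in the table shared either seed. The probes are DNA, written in lower case 5′ to 3′, and pair with the 3′ part of each arm:
miR-210-3p, 16-base probe: tcagccgctgtcacac
miR-210-3p, 15-base probe: tcagccgctgtcaca
miR-210-5p, 13-base probe: cagtgtgcggtgg
miR-210-5p, 12-base probe: cagtgtgcggtg
The 16-base and 15-base probes cover bases 7 to 22 and 8 to 22 of miR-210-3p, and the 13-base and 12-base probes cover bases 10 to 22 and 11 to 22 of miR-210-5p. The probes of an arm overlap, so they are not independent measurements. Each matched the sequence of 1 mature miRNA. The same bases lie in the hairpin, and whether unprocessed hairpins added to a signal was not tested.

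miR-210-3p was lower in cKO than in wild-type footpad skin at E17.5, by 1.91-fold. The 16-base probe, the brighter one, stands for miR-210-3p below. Its background-subtracted fluorescence, in arbitrary linear units before any scaling, reached 266 and 244 in cKO skin, against 587 and 690.4 in wild-type skin. Both cKO pools lay below both wild-type pools, here and on the scaled levels given next. On the scaled levels 71 of the 385 tested miRNAs showed this separation at E17.5 (18.4%). After each array was divided by the 75th percentile of probes detected on all 8 arrays, the log2 level was -0.61 and -0.62 in cKO, against 0.22 and 0.41 in wild type. The means were -0.62 ± 0.01 in cKO and 0.31 ± 0.13 in wild type (SD, n = 2 each), so nearly all the spread at E17.5 lay between the wild-type pools.

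The log2 difference at E17.5, cKO minus wild type, was -0.93 ± 0.08 (SE, limma adjusted p = 9.55e-04). Of the 385 miRNAs tested, 39 passed the test as lower in cKO (10.1%), and 139 passed as higher (36.1%). The 15 miRNAs that passed as lower by at least 2-fold (3.9%) had larger decreases, and miR-210-3p came 16th. The median change over all tested miRNAs was 0.13, and relative to it miR-210-3p was at -1.06. The direction and the call held under each of the 7 scalings compared, no scaling among them, but the size depended on the scale. Without scaling the difference was -1.32 (SE 0.19, adjusted p = 0.00585), and with the array's positive control probes as the scale it was -1.71 (3.28-fold, adjusted p = 4.26e-05). That last scale rested on few control probes, and with the median ratio of these controls as the scale the difference was -1.40.

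The wild-type arrays were brighter at E17.5: their scaling divisors were 503 and 521, against 408 and 375 in cKO. Set against each setting's own median over the tested miRNAs, the change lay between -0.93 and -1.17 under all 17 other settings compared. When any 1 array was left out, the difference lay between -1.02 and -0.84. Leaving out an E16.5 array could not change it. Leaving out an E17.5 array could not reverse its direction, because both cKO pools lay below both wild-type pools. The shorter probe gave the same picture, with log2 levels of -1.09 and -1.10 in cKO, against -0.17 and 0.00139 in wild type, a difference of -1.01.

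**Figure D1:**
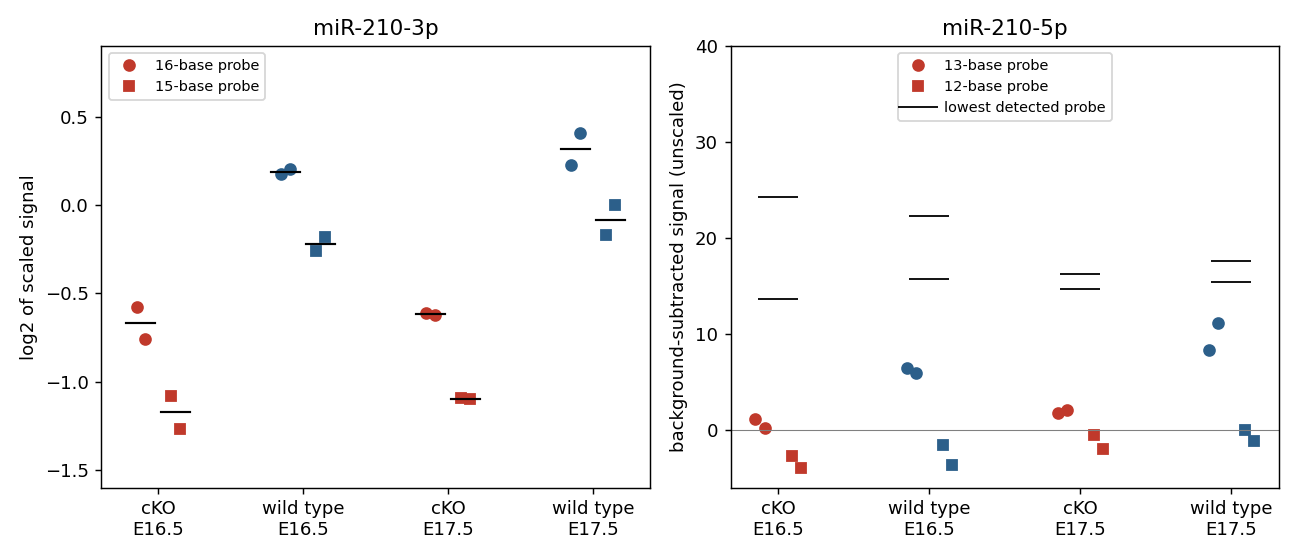
Level on each of the 8 arrays of miR-210-3p (left panel, log2 of scaled signal, 16-base and 15-base probes, bars at the mean of 2 arrays) and of miR-210-5p (right panel, unscaled signal, 13-base and 12-base probes, bars at the lowest detected probe of each array). Each point is 1 pool, red for cKO and blue for wild type: with either miR-210-3p probe the cKO points lie below the wild-type points at both stages, and every miR-210-5p point lies under the bars.

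At E16.5, the stage that chose it, miR-210-3p had unscaled signals of 192.3 and 170.3 in cKO, against 449 and 327 in wild type. The scaled log2 levels were -0.58 and -0.76 in cKO, against 0.18 and 0.20 in wild type. The means were -0.67 ± 0.13 in cKO and 0.19 ± 0.02 in wild type (SD, n = 2 each). Both cKO pools lay below both wild-type pools, as for 74 of the 385 tested miRNAs at that stage (19.2%), and nothing is read from this because the same contrast chose the member. The log2 difference was -0.86, or 1.81-fold, with -0.95 from the 15-base probe. Over the 7 scalings it lay between -0.80 and -1.23.

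The order of the 4 levels was cKO at E16.5, cKO at E17.5, wild type at E16.5 and wild type at E17.5, from lowest to highest. The cKO levels of the 2 stages overlapped and differed by 0.05 on the log2 scale. The wild-type levels differed by 0.13, E17.5 minus E16.5, with no overlap but with a standard error of 0.08, so on this scale these neighbours did not differ clearly beyond their spread. The wild-type stage difference was larger on other scales, at 0.17 with quantile scaling, 0.24 with median scaling, 0.50 with all probes, 0.51 with the positive controls and 0.37 with their ratio. The wild-type median over all tested miRNAs moved too, from -0.04 on the scale used here. It was 0 with quantile scaling, 0.01 with median scaling, 0.25 with all probes, 0.29 with the positive controls and 0.15 with their ratio. The cKO minus wild-type difference was lower by 0.07 at E17.5 than at E16.5, which is a value with no test because it uses the E16.5 arrays, and under the 6 other scalings it was lower by 0.16 to 0.48. Without scaling the stage differences were 0.49 in cKO and 0.73 in wild type, against medians over all tested miRNAs of 0.36 in cKO and 0.47 in wild type.

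miR-210-3p was measured well on every array. Each probe had 15 spots per array, all spots that were used stood well above background, and their coefficient of variation lay between 2.30% and 8.15%. The difference between cKO and wild type was therefore larger than the spread over spots as well as the spread between pools.

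miR-210-5p, the partner arm, was not well above background on any of the 8 arrays and was not tested. Its 13-base probe gave unscaled signals of 1.12 and 0.178 in cKO at E16.5, against 6.46 and 5.98 in wild type. At E17.5 it gave 1.73 and 2.13 in cKO, against 8.33 and 11.1 in wild type. All of these lay under the lowest signal of a detected probe on the same array, which was between 13.7 and 24.3 units over the 8 arrays. A single spot of 14, on the second wild-type array at E17.5, was marked well above background. The 12-base probe stayed between -3.96 and 0.0370 units on all 8 arrays. Both groups thus have only a bound, and no fold is given for this arm.

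**Figure D2:**
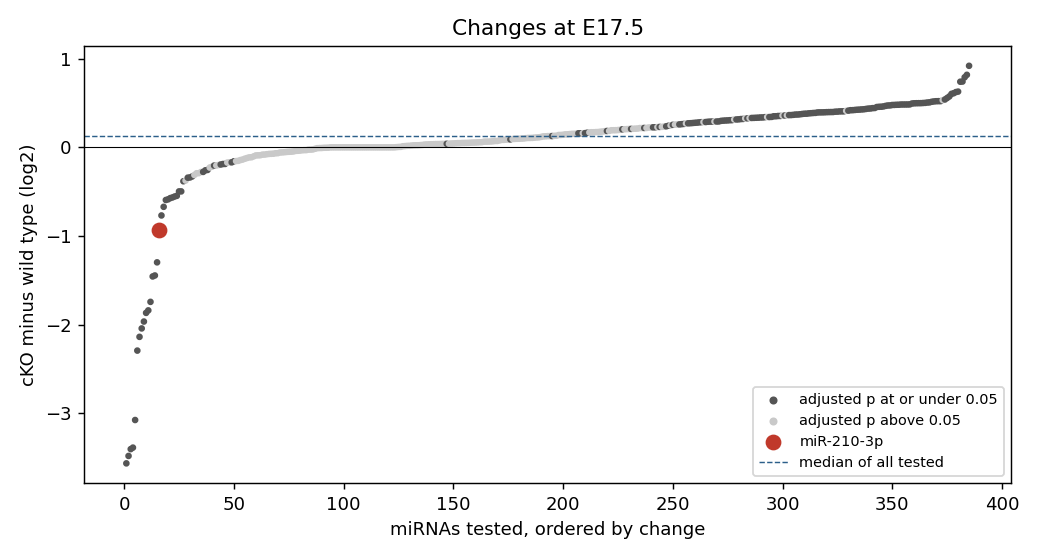
Difference in log2 level between cKO and wild type at E17.5 for the 385 tested miRNAs, in order of the difference, with miR-210-3p in red, miRNAs that passed the test in dark grey and the median as a dashed line. miR-210-3p is 16th from the lower end at -0.93.

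Among the 261 miRNAs detected on all 8 arrays, miR-210-3p had the 10th lowest change at E17.5. Just below it stood miR-6997-5p at -1.74 and miR-96-5p at -1.46, a sensory-organ miRNA of the miR-183 cluster. Just above it stood miR-196a-5p, encoded in the Hox clusters, at -0.77, and miR-193a-3p at -0.67. All 4 passed the test as lower (limma adjusted p between 1.89e-04 and 0.00145).

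**Figure D3:**
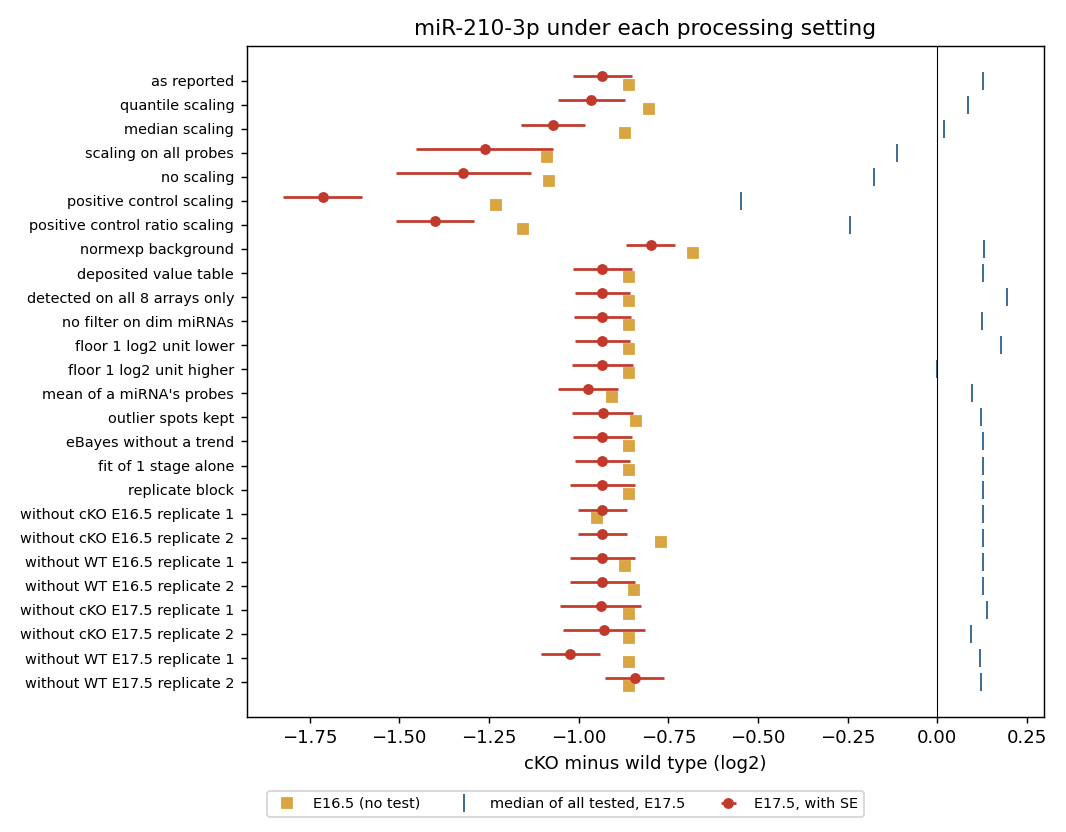
Log2 difference of miR-210-3p, cKO minus wild type, at E16.5 and E17.5 under each processing setting. Red points with standard errors are E17.5, yellow squares E16.5 and blue ticks the E17.5 median of all tested miRNAs, and all points and squares lie below 0.

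The miRNAs whose levels over the 8 arrays were most like those of miR-210-3p were found by Pearson correlation of log2 levels among the 260 others detected on every array. The correlations were 0.989 for miR-196a-5p, 0.986 for miR-141-3p, 0.981 for both miR-200a-3p and miR-34a-5p, and 0.979 for miR-20a-5p. They describe 8 arrays that fall into 2 genotypes, so a miRNA clearly lower in cKO at both stages scores high, and no p is given. One clearly higher in cKO scores low, as did miR-154-3p at -0.975. The size of the difference set these miRNAs apart. miR-196a-5p stayed closest, with a root mean square difference from miR-210-3p of 0.11 log2 units after each was centred, and E17.5 and E16.5 changes of -0.77 and -0.67. miR-20a-5p, of the miR-17-92 cluster, differed by 0.19 and changed by -0.57 at E17.5. miR-34a-5p, a p53-induced miRNA, changed by -1.84 there.

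The 2 epithelial miRNAs among them changed more: miR-200a-3p by -2.29 and miR-141-3p by -3.39 at E17.5, all 5 with limma adjusted p at or under 2.57e-04. miR-196a-5p ranked first under 6 of the 7 scalings and 10th under quantile scaling. miR-20a-5p ranked 5th here, 2nd under 5 other scalings and 11th under quantile scaling. The other three left the first 5 under several scalings: miR-141-3p ranked as low as 26th, miR-200a-3p 26th and miR-34a-5p 17th. The mature sequence of miR-196a-5p is identical at chr11:96265187-96265208 and chr15:102973365-102973386 on the plus strand of GRCm38.p6. It is set beside that of miR-210-3p, with seeds in capitals, to show that they are unalike:
miR-210-3p: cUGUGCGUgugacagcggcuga
miR-196a-5p: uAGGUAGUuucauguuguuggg
The longest run of bases in common was 3 with miR-196a-5p and 4 with each of the other four. The longest run that miR-210-3p shared with any other mature mouse miRNA was 9.

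**Figure D4:**
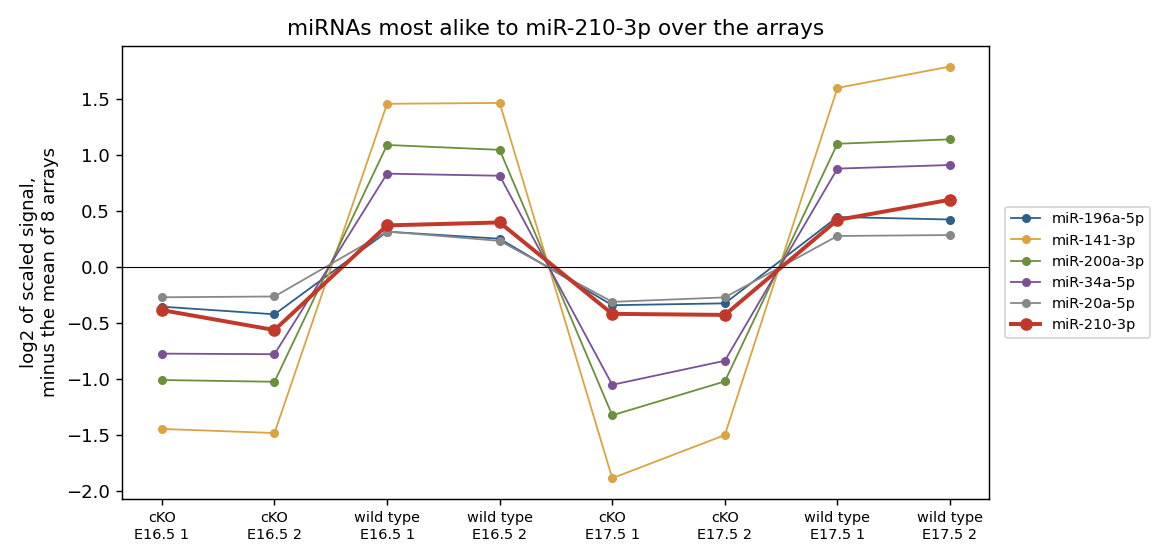
Log2 levels of miR-210-3p and of the 5 miRNAs most like it on the 8 arrays, each minus its own mean, with arrays named by genotype, stage and replicate. miR-196a-5p follows miR-210-3p most closely, and miR-141-3p has the widest span.

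Other miRNAs reported to be induced in hypoxic cultured human cells changed in both directions on the scale used here. Of 17 on that list 16 were tested, and 6 passed as lower, 5 as higher and 5 did not pass at E17.5. Over all 385 tested, 39 passed as lower (10.1%) and 139 as higher (36.1%). Their median change was 0.03, against 0.13 over all tested miRNAs, and their changes ran from -0.55 to 0.35. Among the 5 that did not pass, miR-192-5p sat at the floor in both E17.5 groups, so the floor set its change of 0. miR-106a-5p had no row on the array. The largest decreases were in miR-93-5p, a cell-cycle miRNA of the miR-106b-25 cluster (-0.55, adjusted p = 0.00206), and miR-27a-3p (-0.50, adjusted p = 0.00191). miR-27a-3p passed as lower under all 7 scalings.

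miR-107-3p and miR-103-3p, near-identical miRNAs of Pank gene introns, were both at -0.34 (adjusted p = 0.00446 and 0.00249). The largest increases were in miR-125b-5p at 0.35, miR-195a-5p at 0.29, miR-181a-5p at 0.27 and miR-26b-5p at 0.23 (adjusted p between 0.00582 and 0.0351). All 4 were negative with no scaling, with the positive controls and with their ratio. Each passed as higher under only 2 of the 7 scalings. miR-21a-5p, abundant in skin, was at -0.20 and did not pass (adjusted p = 0.0636). The list's counts depended on the scale and on single arrays. They were 16 lower and 0 higher with the positive controls as the scale, and 1 lower and 0 higher when all probes set it. The number higher was also 0 with no scaling and with the ratio of positive controls, and 1 with median scaling. At E17.5 the 5 increases became 1 when either cKO array was left out, 3 without the first wild-type array and 2 without the second.

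A second list held miRNAs reported to act on mRNAs of HIF or its regulators. Of 12 listed, 9 were tested, and 7 passed as lower and 2 as higher at E17.5, beside 10.1% lower and 36.1% higher over all 385 tested. Their median change was -0.56, beside 0.13 over all tested miRNAs. miR-138-5p, miR-155-5p and miR-184-3p were detected on 0 arrays. The 5 that passed as lower under all 7 scalings were miR-429-3p, miR-31-5p, miR-20b-5p, miR-20a-5p and miR-17-5p. miR-429-3p, which targets HIF1A mRNA in human endothelial cells and is also an epithelial marker of the miR-200 family, was at -3.08 (SE 0.16, adjusted p = 2.10e-04). Its log2 level in cKO at E17.5, -3.88 ± 0.32 (SD, n = 2), lay near the floor of -4.24. miR-31-5p, which targets the mRNA of the HIF inhibitor FIH in human carcinoma cells, passed as lower (adjusted p = 2.10e-04). It was detected on 1 of the 2 cKO arrays at E17.5, where its log2 levels of -4.24 and -4.19 lay at or near the floor, against -2.28 and -2.06 in wild type. Its fitted difference of -2.04 is therefore set by the floor and may understate the decrease.

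The 3 relatives miR-20b-5p, miR-20a-5p and miR-17-5p, whose family is known to act on HIF1A mRNA, were at -0.59, -0.57 and -0.56 (adjusted p between 2.57e-04 and 0.00153). miR-18a-5p was at -0.38 and miR-107-3p, also on the hypoxia list, at -0.34. The 2 that passed as higher were miR-199a-5p at 0.52 and miR-322-5p at 0.27. Both turned negative with the positive controls as the scale, when all 9 passed as lower. miR-322-5p was also negative with all probes (-0.06), with no scaling (-0.12) and with the ratio of positive controls (-0.20). Each of these 2 passed as higher under only 2 of the 7 scalings. miR-199a-5p is also 1 of the mesenchymal markers counted below.

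**Figure D5:**
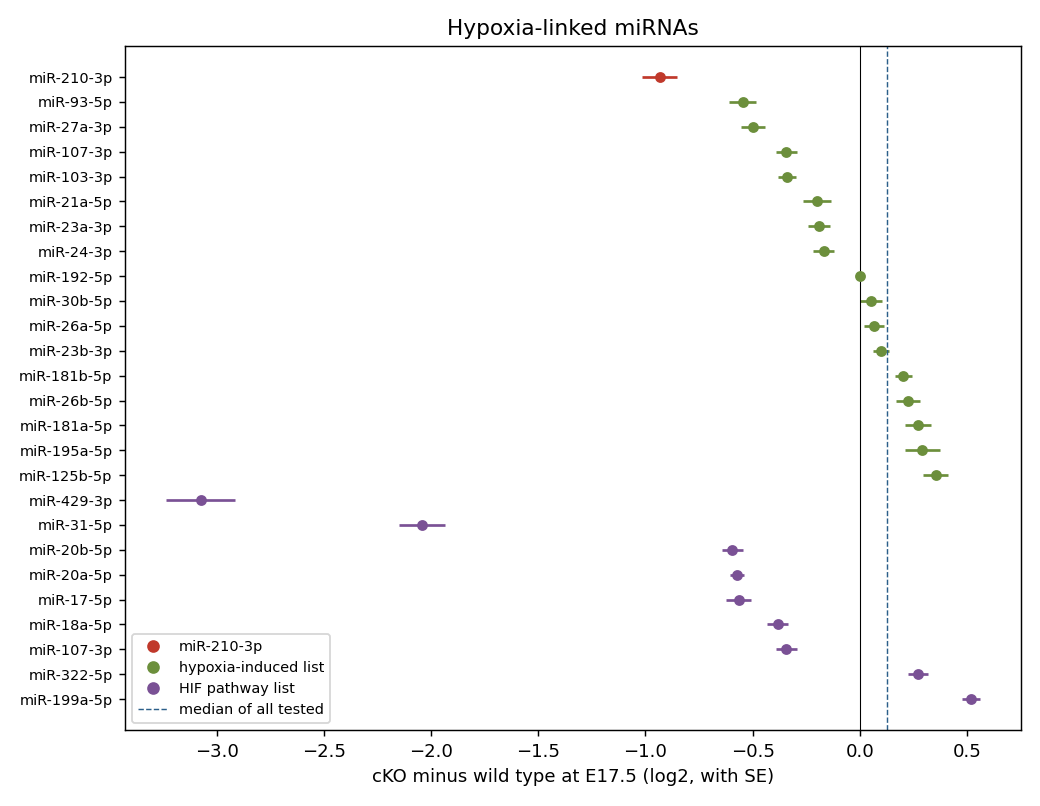
Log2 difference, cKO minus wild type, at E17.5 for the tested members of the hypoxia-induced list and the HIF pathway list, with miR-210-3p for comparison. Each point is 1 miRNA with its standard error, the dashed line is the median of all tested miRNAs, and miR-210-3p at -0.93 lies below the whole hypoxia-induced list, which ends at -0.55.

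Markers of skin epithelium were also lower in cKO. All 7 (the miR-200 family with miR-141-3p, miR-203-3p and miR-205-5p) passed as lower at E17.5, with a median of -3.39, and none was at 0. Their summed scaled signal was 2.58 to 3.43 in cKO and 28.2 to 31.2 in wild type at E17.5, and 3.75 to 4.01 in cKO and 26.3 to 26.9 in wild type at E16.5. In bulk skin, fewer cells of a type and less RNA per cell cannot be told apart. Markers of dermal mesenchyme passed as higher in 6 of 6, skeletal muscle in 5 of 5, endothelium in 2 of 2, red cells in 0 of 3 and white blood cells in 1 of 3 tested, beside 36.1% of all 385. The mesenchymal and endothelial counts depended on the scale. The skeletal muscle, red cell and white blood cell counts were not examined on other scales. With all probes as the scale or with no scaling, 0 of 6 mesenchymal and 0 of 2 endothelial markers passed as higher, and with the positive controls 6 of 6 and 1 of 2 passed as lower.

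The endothelial pair, miR-126a-3p and miR-126a-5p, had a median change of 0.50, but of -0.28 with the positive controls as the scale. The mesenchymal markers likewise had a median of 0.43, against -0.36 on that scale. miR-210-3p was lower on the same arrays on which epithelial markers were lower under every scaling. The part of these markers in the result was not tested.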

How the data were processed

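The deposited scanner files hold, per the file headers, background-subtracted fluorescence intensity in linear units for each spot, extracted by the authors with Agilent Feature Extraction 11.5.1.1. No scaling between arrays had been applied. The deposited value table matched these signals where they were above 0 and served as an alternative. Spots at 0 or less, 42.2% to 45.1% of an array, were left out of that comparison. The arrays lay on 1 slide, with a slide column per group, so column and group cannot be told apart. The arrays of 1 replicate number shared a slide row.

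Unflagged spots of a probe were averaged. A probe was detected on an array when over 50% of its spots were well above background. The divisor of each array was the 75th percentile of its signals over 474 probes, those detected on every array. Values under -4.24 (log2) were raised to that floor. The brightest probe on average stood for its miRNA, and a miRNA was tested (385 were) if both arrays of any group detected it. The 4 group means were estimated by lmFit and eBayes with a trend (limma 3.58.1, R 4.3.3), and Benjamini-Hochberg adjusted p at or under 0.05 passed. The fit was tested on simulated data. Detected miRNAs per array numbered 279 to 384, and 0 spots were saturated.

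The members and lists were chosen with earlier results of these data known. Named were both members, up to 8 members of each list with the largest change at E17.5, the neighbours in the order of change and the 5 most alike miRNAs; the other list members in the text were named after their values were seen. Deviations of same-numbered arrays correlated at 0.12 to 0.28 in 5 of the 6 pairs of groups, cKO and wild type at E17.5 among them (0.28), and at -0.14 between cKO and wild type at E16.5. As not every pair was above 0.1, the replicates were not treated as paired.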

Additional observations from a re-analysis of the deposited data

How the results depend on the processing

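The decrease of miR-210-3p at E17.5 kept its direction and passed the test under all 17 other settings. Its log2 difference lay between -1.71 and -0.80 there, with limma adjusted p between 1.32e-08 and 0.0116. Many of these settings left the difference at -0.93 and could change only its spread or adjusted p. They were the deposited table, the filters, the floor shifts, the fit without a trend, the fit of 1 stage and the replicate block. The difference lay between -1.02 and -0.84 over the 8 omissions of 1 array. Omitting an E16.5 array could not change it. Omitting an E17.5 array could not reverse it, because both cKO pools lay below both wild-type pools. With replicate number as a block the difference was -0.93 (adjusted p = 0.00324), and 170 miRNAs passed over all tested. Replicate number is also slide row, and the block changed no call of miR-210-3p.

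The count of miRNAs that passed at E17.5, 178 of 385, depended on the scale. It was 35 with all probes as the scale, 51 with no scaling and 332 with the positive control probes, and lay between 113 and 185 when an array was left out, the lowest without the second wild-type array of E17.5. The share of these calls that was higher in cKO was 78.1%, against 57.3% with median scaling, 11.4% with all probes, 7.84% with no scaling, 0.301% with positive controls and 1.74% with the ratio of positive controls, a scale chosen after seeing the data. The medians of all tested miRNAs ran from -0.55 to 0.13 over these scales. The cause was not tested. Signal over background limited miR-210-5p, miR-31-5p in cKO and miR-192-5p, which sat at the floor at E17.5. The epithelial markers miR-429-3p and miR-200c-3p lay near the floor in cKO at E17.5, with mean log2 levels of -3.88 and -4.01.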

Other observations

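The scale set on the positive control probes rested on few of them. Of 20 bright control probes, the 3 of the family named hur_6 differed by 0.35 to 0.44 on the log2 scale at E17.5, cKO minus wild type, before scaling, and the 16 of families hur_1, hur_2, hur_4 and mr_1 by 0.02 to 0.12. The bright corner probe differed by 3.11. With the median ratio of these controls as the scale, miR-210-3p was at -1.40 (limma adjusted p = 2.00e-04), between its values with no scaling and with the control level.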
